A study of Homo sapiens with 8 samples.

Results

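The 10 genes described here are the aldo-keto reductases AKR1B1, AKR1C1 and AKR1C3, the transcription factor NRF2 (gene NFE2L2) and 6 genes that NRF2 is known to drive, NQO1, HMOX1, GCLM, TXNRD1, SRXN1 and SLC7A11. They were picked by name because AKR1B1 fell in both knockdowns. Of the 10 genes, 8 had values among the 12939 genes of the RNA-Seq data, and AKR1C1 and AKR1C3 were not analysed here. The study asked what N-cadherin (CDH2) and connexin 43 (Cx43) do in cancer stem cells (CSCs) of the breast that become dormant in bone marrow. The CSCs came from MDA-MB-231, a triple negative human breast cancer cell line. All 3 groups carried pOct4a-GFP, a stable reporter in which the Oct4a regulatory region drives GFP, together with a stable pRFP-C-RS vector, under puromycin and G418. The vector held scramble shRNA in 3 libraries, CDH2 shRNA in 3 and Cx43 shRNA in 2. The CDH2 line was 1 selected clone, so the knockdown cannot be told apart from the clone. In every group, the cells with the brightest GFP and RFP were sorted and rested overnight before RNA was isolated, and no label says that the replicates came from separate cultures, so p-values measure the spread between these libraries.

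NRF2 is held low in unstressed cells by KEAP1, which hands it to a CUL3 ubiquitin ligase for degradation. Oxidants and electrophiles modify KEAP1, NRF2 then builds up in the nucleus, and with small MAF proteins it binds antioxidant response elements near genes for glutathione synthesis, thiol repair and the removal of quinones and heme. Aldo-keto reductases use NADPH to turn reactive aldehydes and ketones into alcohols. AKR1B1, or aldose reductase, also starts the polyol pathway by reducing glucose to sorbitol and has prostaglandin F synthase activity. In breast cancer AKR1B1 is known as a gene of basal-like and mesenchymal tumours, and NRF2 activity is linked to drug resistance.

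Values were log2(CPM + 1), where CPM is the count of a gene scaled to the size of its library, and no counts were used here, which leaves the depth unknown. All 8 markers of mesenchymal MDA-MB-231 cells had values. Their summed levels were 2493 to 2592 CPM in scramble, 2735 to 2993 CPM with CDH2 shRNA and 2679 to 2878 CPM with Cx43 shRNA. By log2 fold change, single markers ran from -0.07 (CAV1) to 0.53 (ZEB1) with CDH2 shRNA. With Cx43 shRNA they ran from -0.37 (SNAI2) to 0.48 (MSN). Among markers of other cells, values were found for 2 of 8 epithelial and receptor genes (EPCAM and CLDN4), 3 of 7 stromal genes, 1 of 5 leukocyte genes (CD68) and 1 of 3 endothelial genes (PECAM1), and the others were not analysed here. The stromal sum (COL1A1, PDGFRB and ENG) was 136 to 138 CPM in scramble, 112 to 121 CPM with CDH2 shRNA and 95.04 to 100 CPM with Cx43 shRNA. Within it COL1A1 and PDGFRB had log2 fold changes of 0.16 and -0.63 with CDH2 shRNA. The epithelial sum was 72.4 to 77.6 CPM in scramble, 55.8 to 61.8 CPM with CDH2 shRNA and 68.4 to 73.0 CPM with Cx43 shRNA. PECAM1 was at 3.48 to 4.67, 2.18 to 2.85 and 2.81 to 3.49 CPM in the same order, and CD68 at 17.1 to 17.5, 17.5 to 21.5 and 12.6 to 15.9 CPM. The part of these shifts in the results below was not tested. The targeted transcripts, CDH2 and GJA1 (the gene of Cx43), were not analysed here, and the degree of silencing was not checked.

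The core of the antioxidant response element, TGACNNNGC on either strand, was searched in RefSeq promoter windows of 300 bases (GRCh38.p14), which run from 250 bases before the start of a transcript to 50 after it. The search is shown since the genes were grouped as targets of 1 factor. Windows were found for 8 of the 10 genes, all but HMOX1 and SLC7A11, and those of GCLM and TXNRD1 held the core. The sites below are on the strand of the gene, with 10 bases on each side, and capitals mark the matched letters.
GCLM, chr1:93909446-93909474, minus strand: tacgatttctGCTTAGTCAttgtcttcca
TXNRD1, chr12:104215670-104215698, plus strand: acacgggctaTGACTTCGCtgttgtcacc
TXNRD1 at a second start, chr12:104286920-104286948, plus strand: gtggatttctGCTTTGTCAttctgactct
The GCLM site began 34 bases before the start and lay on the opposite strand, as did the third site, which began 102 bases before the second start of TXNRD1. Both also held the longer form, the core followed by an A, which was found in 3.18% of all 35116 windows. The core alone was found in 13.3% of them, and the AP-1 motif TGACTCA, which can overlap the core, lay in none of the 3 sites. One more core match in TXNRD1 crossed the start itself. No match was found in the windows of AKR1B1, NQO1, SRXN1, NFE2L2, AKR1C1 and AKR1C3, which says only that these letters were not in these windows. These sites describe sequence and were not shown to be bound.

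AKR1B1 lies on chromosome 7 of hg38 from 134442356 to 134459284, on the minus strand, with 10 exons in its canonical transcript. Its log2(CPM + 1) was 7.22, 7.23 and 7.21 in the scramble libraries, 6.40, 6.45 and 6.43 with CDH2 shRNA, and 6.67 and 6.60 with Cx43 shRNA. Every knockdown library was below every scramble library, and every CDH2 knockdown library was below both Cx43 knockdown libraries. The log2 fold change was -0.79 (standard error 0.07) with CDH2 shRNA and -0.59 (standard error 0.09) with Cx43 shRNA, or 57.7% and 66.6% of the scramble level. The gene was picked for these falls, so they are a description with no test. Both contrasts use the same scramble libraries. The rule did not use the comparison of the knockdowns with each other, in which AKR1B1 was lower with CDH2 shRNA by a log2 fold change of -0.21 (95% interval -0.42 to 0.01, adjusted p = 0.258 from limma), past no threshold. In bulk RNA, fewer cells that express a gene and less of its RNA per cell cannot be told apart. AKR1B1 has 8 annotated pseudogenes, with which reads could have been shared in the authors' counting.

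**Figure D1:**
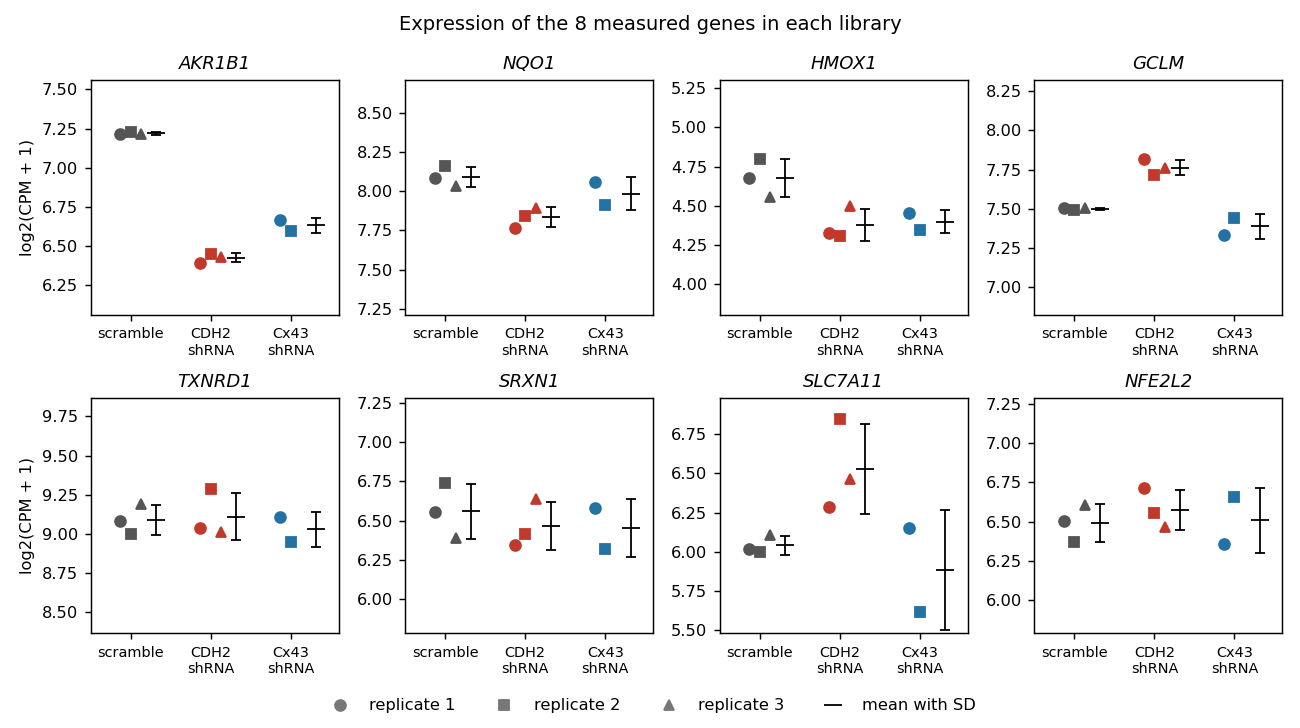
Log2(CPM + 1) of the 8 measured genes (y axis, each panel spanning 1.5 log2 units) in every library of the 3 groups (x axis), with replicate numbers as symbols and the group mean with SD beside them. AKR1B1 sits near 7.22 in scramble and at or below 6.67 in all 5 knockdown libraries, while the groups overlap for TXNRD1, SRXN1 and NFE2L2.

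Among the enzymes that remove quinones and heme, NQO1 reduces quinones with both electrons at once, and HMOX1 (heme oxygenase 1) opens heme to biliverdin, iron and carbon monoxide. NQO1, on chromosome 16 from 69706996 to 69726668, stood at 8.09, 8.16 and 8.03 in scramble, 7.76, 7.84 and 7.90 with CDH2 shRNA, and 8.06 and 7.91 with Cx43 shRNA. All 3 CDH2 knockdown libraries were below scramble and below Cx43 knockdown, and the Cx43 knockdown libraries overlapped scramble. Its log2 fold change was -0.26 with CDH2 shRNA (standard error 0.09, 95% interval -0.48 to -0.04, adjusted p = 0.0985 from limma), past no threshold, and -0.11 with Cx43 shRNA (interval -0.37 to 0.15, adjusted p = 0.597). HMOX1, on chromosome 22 from 35380361 to 35394214, stood at 4.67, 4.80 and 4.56 in scramble, 4.33, 4.31 and 4.50 with CDH2 shRNA, and 4.45 and 4.35 with Cx43 shRNA. Again every knockdown library was below every scramble library, although the gap between the highest CDH2 knockdown library and the lowest scramble library was small. HMOX1 had a log2 fold change of -0.30 with CDH2 shRNA (adjusted p = 0.102 from limma, standard error 0.11) and of -0.28 with Cx43 shRNA (adjusted p = 0.266, standard error 0.12), and neither was past threshold. For both genes replicate 3 gave the smallest difference between CDH2 knockdown and its scramble library, -0.14 for NQO1 and -0.06 for HMOX1. Without CDH2 or scramble replicate 3, which give the same fit, the values with CDH2 shRNA were -0.32 for NQO1 and -0.42 for HMOX1 (adjusted p = 0.0465 and 0.0139 from limma), short of the minimum of 0.73. That fit called 723 of all genes, against 267 with all libraries. Without CDH2 replicate 1 the values were -0.20 and -0.26 (adjusted p = 0.400 and 0.342 from limma). Without scramble replicate 1 they were -0.26 and -0.30 (adjusted p = 0.439 and 0.401 from limma).

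The supply of glutathione was represented by GCLM, the modifier subunit of the enzyme that starts glutathione synthesis, and SLC7A11, the cystine carrier of system xc-. GCLM, on chromosome 1 from 93885199 to 93909456 and with the longer element in its promoter window, stood at 7.50, 7.49 and 7.50 in scramble, 7.81, 7.71 and 7.76 with CDH2 shRNA, and 7.33 and 7.44 with Cx43 shRNA. The CDH2 knockdown libraries were all above scramble and the Cx43 knockdown libraries both below it. The log2 fold change of GCLM was 0.26 with CDH2 shRNA (standard error 0.08, 95% interval 0.07 to 0.46, adjusted p = 0.0724 from limma) and -0.11 with Cx43 shRNA (standard error 0.09, adjusted p = 0.522). The direct difference, CDH2 minus Cx43 knockdown, was 0.38 (interval 0.15 to 0.60) with an unadjusted p of 0.00704 and an adjusted p of 0.148 from limma. It was past the adjusted threshold without the replicate number as a block (0.38, adjusted p = 0.00634 from limma) and without CDH2 or scramble replicate 3 (adjusted p = 0.0442), and short of the 1.5-fold minimum in each. Those fits called 360 and 545 of all genes, against 0 in the fit of all libraries with the block. The difference was not past the threshold without scramble replicate 1 (adjusted p = 0.495 from limma) or CDH2 replicate 1 (adjusted p = 0.528). Nor was it with the spread over the 2 residual directions that vary (adjusted p = 0.481 from limma).

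SLC7A11, on chromosome 4 from 138164097 to 138242349, stood at 6.02, 5.996 and 6.11 in scramble, 6.28, 6.84 and 6.46 with CDH2 shRNA, and 6.15 and 5.62 with Cx43 shRNA. It was above scramble in all CDH2 knockdown libraries, and the Cx43 knockdown libraries lay on either side of scramble. Its log2 fold change was 0.49 with CDH2 shRNA (standard error 0.20, interval -0.01 to 0.99, adjusted p = 0.137 from limma) and -0.16 with Cx43 shRNA (standard error 0.24, adjusted p = 0.736). With 1 library left out the value with CDH2 shRNA ran from 0.24, without CDH2 replicate 2, to 0.69, without CDH2 replicate 1, and was 0.56 without CDH2 or scramble replicate 3 (adjusted p = 0.0323 from limma), short of the minimum of 0.73. The direct difference was 0.65 (interval 0.06 to 1.23, adjusted p = 0.217), past no threshold. It was past the threshold when CDH2 replicate 3 or scramble replicate 3 was left out (0.68, adjusted p = 0.03 from limma), or scramble replicate 2 (0.66, adjusted p = 0.0496). In these fits 545 and 435 of all genes were called between the knockdowns, against 0 with all libraries. The direct difference was 0.24 without Cx43 replicate 2 and 1.05 without Cx43 replicate 1. SLC7A11-AS1 covers 865 of the 9645 bases of the transcript on the other strand, and no source states that reads were counted by strand.

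In thiol repair, TXNRD1 (thioredoxin reductase) recharges thioredoxin with NADPH, and SRXN1 (sulfiredoxin) rescues peroxiredoxins that have been oxidized too far. TXNRD1, on chromosome 12 from 104215779 to 104350307, stood at 9.08, 9.0002 and 9.19 in scramble, 9.04, 9.28 and 9.01 with CDH2 shRNA, and 9.11 and 8.95 with Cx43 shRNA. The groups overlapped throughout. Its log2 fold change was 0.02 with CDH2 shRNA (95% interval -0.27 to 0.31, adjusted p = 0.919 from limma), which leaves room for a change of up to that size in either direction. SRXN1, on chromosome 20 from 646615 to 653200, ranged from 6.39 to 6.74 in scramble, from 6.34 to 6.64 with CDH2 shRNA and from 6.32 to 6.58 with Cx43 shRNA, with log2 fold changes of -0.09 (adjusted p = 0.663 from limma) and -0.11 (adjusted p = 0.747). The groups of SRXN1 overlapped as well, and 2292 of the 2528 bases of its transcript are shared with a readthrough gene on the same strand, ENSG00000270299.

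NFE2L2, which encodes NRF2 itself, lies on chromosome 2 from 177218667 to 177392756. It stood at 6.50, 6.37 and 6.61 in scramble, 6.71, 6.55 and 6.46 with CDH2 shRNA, and 6.36 and 6.65 with Cx43 shRNA. The groups overlapped, with log2 fold changes of 0.09 with CDH2 shRNA (adjusted p = 0.657 from limma, standard error 0.13) and 0.02 with Cx43 shRNA (adjusted p = 0.965, standard error 0.15). NRF2 is controlled largely through protein stability, which RNA levels do not show. All 16 partners and regulators of NRF2 on the list had values, and none was called in either knockdown. Over all genes 2.06% were called with CDH2 shRNA and 1.18% with Cx43 shRNA. KEAP1 had log2 fold changes of 0.03 with CDH2 shRNA and 0.29 with Cx43 shRNA (adjusted p = 0.866 and 0.252 from limma). BACH1 is a repressor at antioxidant response elements and best known for holding HMOX1 down. It had log2 fold changes of 0.63 and 0.49 in the same order (adjusted p = 0.115 and 0.362 from limma). Its range with CDH2 shRNA (5.67 to 6.33) overlapped scramble (5.05 to 5.72), with differences by replicate number of 0.65, 1.29 and -0.05. The Cx43 knockdown libraries, at 5.86 and 5.88, were above scramble. BACH1 has 5618 bases, and genes of at least 5177 bases had a median of 0.20 with CDH2 shRNA. A link between BACH1 and HMOX1 was not tested. SQSTM1, the autophagy receptor that binds KEAP1, was lower with CDH2 shRNA by a log2 fold change of -0.39, below the minimum of 0.73, with an adjusted p of 0.0386 from limma. RBX1, the RING subunit of the CUL3 ligase, stood at 5.74, 5.86 and 5.596 in scramble, 5.30, 5.08 and 5.39 with CDH2 shRNA, and 5.77 and 5.87 with Cx43 shRNA. Every CDH2 knockdown library was below the other 5, with a log2 fold change of -0.47 (adjusted p = 0.0571 from limma), past no threshold.

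Over the genes other than AKR1B1, 0 of 7 were called with CDH2 shRNA (adjusted p under 0.05 from limma and a log2 change of at least 0.73, the fold change of the study's methods), against 2.06% of all genes. With Cx43 shRNA (a change of at least 1.5-fold) 0 of 7 were called, against 1.18% of all genes. Between the knockdowns, 0 of 8 were called, against 0% of all genes. With AKR1B1 the count was 1 of 8 in each knockdown, which the choice of the gene fixed. At an unadjusted p under 0.05, the count over the 7 genes was 3 with CDH2 shRNA (NQO1, HMOX1 and GCLM; 37.5% of all genes), 0 with Cx43 shRNA (21.6%) and 2 between the knockdowns (GCLM and SLC7A11; 20% of all genes). The ranges of CDH2 knockdown and scramble did not overlap for 4 of the 7 genes. In 2 of them CDH2 knockdown was lower, against 24.8% of all genes, and in 2 it was higher, against 27.1%. Cx43 knockdown lay wholly below scramble for 2 genes, HMOX1 and GCLM, against 21.4% of all genes, and wholly above it for 0, against 31.4%. CDH2 knockdown lay wholly above Cx43 knockdown for 2 genes, GCLM and SLC7A11 (21.8% of all genes), and wholly below it for 1, NQO1 (29.1%). The median log2 fold change of the 7 genes was 0.02 with CDH2 shRNA and -0.11 with Cx43 shRNA, beside 0.01 and 0.04 over all genes. These shares were near or below those over all genes.

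**Figure D2:**
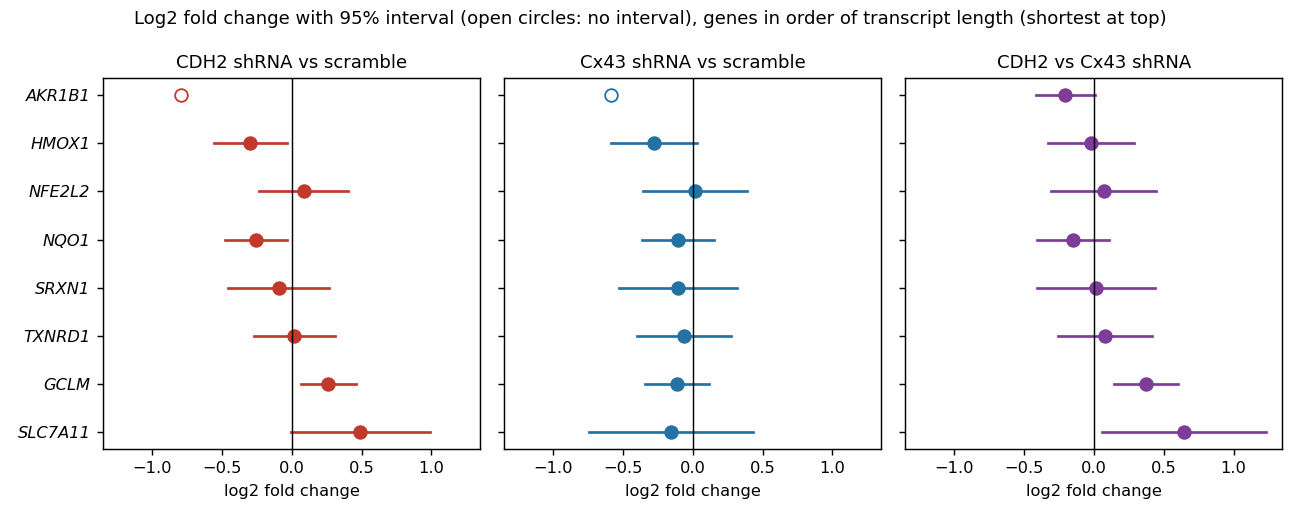
Log2 fold change (x axis) of the 8 genes with CDH2 shRNA versus scramble, Cx43 knockdown versus scramble and CDH2 versus Cx43 knockdown, with bars for the 95% interval from limma. Open circles are AKR1B1 in the contrasts it was picked from, drawn with no interval. With CDH2 shRNA the values run from -0.79 for the shortest transcript, AKR1B1, to 0.49 for the longest, SLC7A11.

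The order of the 8 genes with CDH2 shRNA largely followed the length of their transcripts. AKR1B1 (1361 bases) and HMOX1 (1554 bases) were the shortest and had the lowest log2 fold changes, -0.79 and -0.30. GCLM (4883 bases) and SLC7A11 (9645 bases) were the longest and had the highest, 0.26 and 0.49. NFE2L2, NQO1, SRXN1 and TXNRD1, from 2446 to 3860 bases, lay between, from -0.26 to 0.09. Spearman's rho over the 8 genes, which share the same libraries, was 0.857 with CDH2 shRNA and 0.238 with Cx43 shRNA. The place of AKR1B1 at the low end was fixed by its choice, and over the 7 genes without it rho was 0.786 and -0.143. The same trend ran through the whole data, with a rho of 0.50 over the 11812 genes with a length with CDH2 shRNA and 0.126 with Cx43 shRNA. The median log2 fold change with CDH2 shRNA was -0.21 in the shortest of 4 bins of genes by length, then -0.04, 0.09 and 0.20 in the bins above it. With Cx43 shRNA these medians were -0.02, 0.04, 0.08 and 0.07.

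Against genes of like length, with CDH2 shRNA 74 of the 2955 genes of the shortest bin (2.50%) had a lower log2 fold change than AKR1B1, and with Cx43 shRNA 103 (3.49%), which is a description of AKR1B1, since it was picked for its falls. HMOX1 was closer to the middle of the same bin with CDH2 shRNA, where 33.8% of its genes were lower, and 14.7% with Cx43 shRNA. The trend with length was then removed from each library. The log2 fold change of AKR1B1 went from -0.79 to -0.61 with CDH2 shRNA and from -0.59 to -0.57 with Cx43 shRNA. Both values were then short of the fold change thresholds, and the difference of AKR1B1 between the knockdowns shrank from -0.21 to -0.03. With the trend removed, the values with CDH2 shRNA were -0.14 for HMOX1, -0.21 for NQO1, 0.13 for GCLM and 0.25 for SLC7A11, with adjusted p from 0.101 to 0.336 from limma. With Cx43 shRNA they were -0.27 for HMOX1, -0.14 for NQO1, -0.20 for GCLM and -0.20 for SLC7A11, with adjusted p from 0.0979 to 0.575. The direct difference stayed at 0.33 for GCLM (adjusted p = 0.171 from limma) and was 0.45 for SLC7A11 (adjusted p = 0.283).

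**Figure D3:**
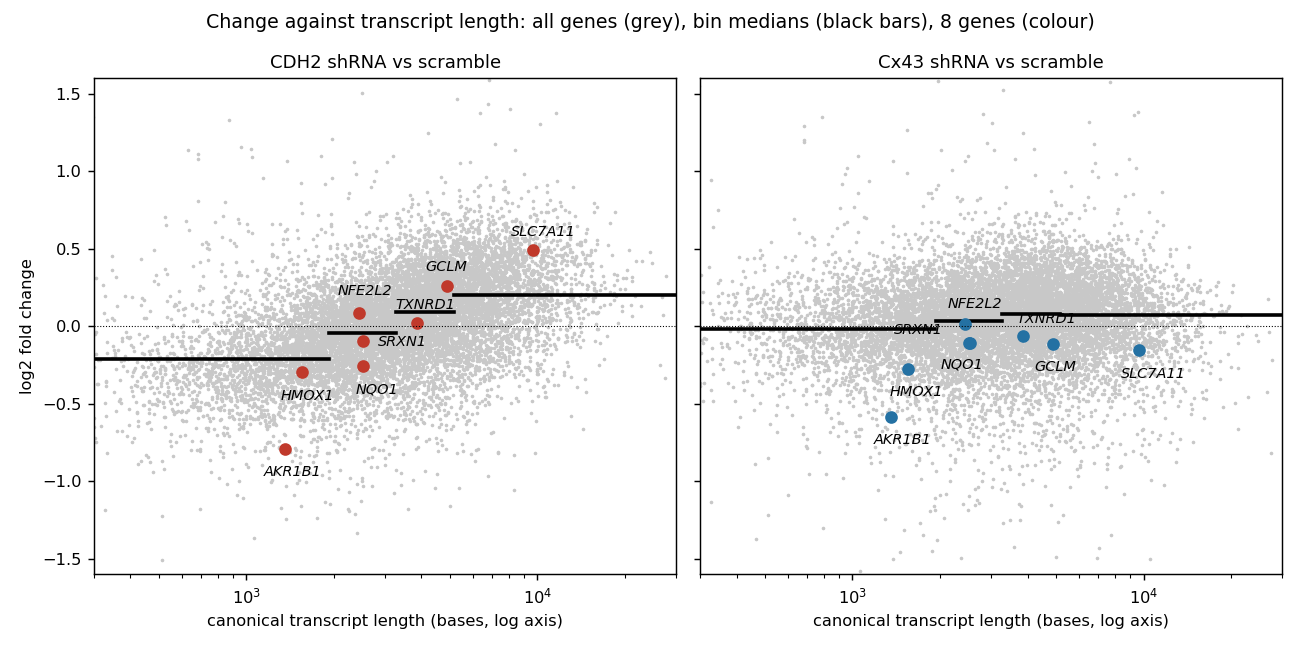
Log2 fold change (y axis) against the length of the canonical transcript in bases (x axis, log scale) with CDH2 shRNA and with Cx43 shRNA versus scramble. Grey points are all 11812 genes with a length, of which 80 and 89 lie beyond the axes, black bars are the medians of the 4 bins by length, and coloured points are the 8 genes. With CDH2 shRNA the medians climb from -0.21 to 0.20 and the coloured points climb with them. AKR1B1, picked for its falls, lies at -0.79 and -0.59.

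Genes of the same defences outside the group were read from 14 lists, chosen with earlier results of these data known, of which 163 of 193 genes had values. With CDH2 shRNA 7 of them were called, all lower, and 0 were called higher, against 1.2% of all genes called lower and 0.866% higher. With the adjusted p alone, 31 were lower, against 6.98% of all genes, and 4 higher, against 7.29%. Their median log2 fold change was -0.16, beside 0.01 over all genes. The 7 genes were GGT1, GSTZ1 and CHAC1 of glutathione metabolism, PRDX5, a peroxiredoxin, SOD3, the secreted superoxide dismutase, FTH1, the ferritin heavy chain, and PTGS1 (cyclooxygenase 1). PTGS1 and PRDX5 had the largest changes, -1.16 and -1.02 (adjusted p = 0.016 from limma for both). When the trend with length was removed, 3 of the 7 remained called, PTGS1 at -1.303, GGT1 at -0.81 and PRDX5 at -0.76. None of the 7 was called when CDH2 replicate 1 or 2, scramble replicate 1 or either Cx43 library was left out, or when only the CDH2 and scramble libraries were fitted, while 12 list genes were called without CDH2 or scramble replicate 3.

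With Cx43 shRNA 6 of the 163 genes were called, 1 higher, against 0.402% of all genes, and 5 lower, against 0.781%. SESN3, a sestrin, rose by 1.38 on the log2 scale (adjusted p = 0.0349 from limma), from 1.74 to 1.84 in the scramble libraries to 3.04 and 3.32. PTGS1 fell by 1.49 (adjusted p = 0.0228 from limma) and GGT1 by 1.05 (adjusted p = 0.0399). SOD3 fell by 0.67 (adjusted p = 0.0464 from limma), and ASNS and DDIT3, both targets of ATF4, fell by 0.77 and 0.62 (adjusted p = 0.0354 and 0.0384). All 6 remained called with the trend with length removed. The median over the 163 genes was 0.01, beside 0.04 over all genes. No list gene was called without Cx43 replicate 1 or 2, CDH2 replicate 2 or scramble replicate 1, 1 was called without CDH2 replicate 1, 10 without scramble replicate 2, and 16 without CDH2 or scramble replicate 3. Without the replicate number as a block, 12 were called. Between the knockdowns, 0 of the 163 genes were called, and 6 without that block.

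The glutathione list, with 26 of 32 genes measured, had a median of -0.29 with CDH2 shRNA, with 3 genes called lower (1.2% of all genes). By the adjusted p alone 10 were lower and 1 higher, against 6.98% and 7.29% of all genes. Of its genes, 19 were in the shortest bin by transcript length. GCLC, the catalytic partner of GCLM, had log2 fold changes of -0.03 and -0.06 in CDH2 and Cx43 knockdown. The median of the 23 thioredoxin and peroxiredoxin genes was -0.18 with CDH2 shRNA and 0.01 with Cx43 shRNA, and 15 of them were in the shortest bin. TXNIP, which binds and blocks thioredoxin, had -0.23 and 0.01. Of 16 genes of NADPH supply, 0 were called, with 3 lower and 1 higher with CDH2 shRNA by the adjusted p alone. No gene of the quinone and carbonyl list was called among 23 measured, and none of ferroptosis defence (9 measured), ABCC efflux (5 measured) or the polyol pathway (2 measured), where SORD, which turns the sorbitol made by AKR1B1 into fructose, had 0.23 and 0.26. Over all genes 2.06% were called with CDH2 shRNA and 1.18% with Cx43 shRNA, so 0 calls in lists of these sizes say little about them.

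AKR1B1 is also known as a target of NFAT5, the factor of the response to high tonicity. NFAT5 had a log2 fold change of 0.90 with CDH2 shRNA (adjusted p = 0.0724 from limma) and -0.09 with Cx43 shRNA. In the tonicity list 0 of the 7 measured genes were called, against 2.06% of all genes with CDH2 shRNA and 1.18% with Cx43 shRNA. The other measured aldo-keto reductases were AKR1A1 and AKR7A2. Their log2 fold changes were -0.27 and -0.14 with CDH2 shRNA and 0.10 and 0.08 with Cx43 shRNA, none past threshold. Both genes were in the shortest bin by transcript length, with medians of -0.21 with CDH2 shRNA and -0.02 with Cx43 shRNA. Of the list of 11 genes made up of ATF4 and its targets, which also drives SLC7A11, 10 had a lower estimate with CDH2 shRNA and 9 with Cx43 shRNA, with medians of -0.33 and -0.32. By the adjusted p alone, 5 of them were lower with CDH2 shRNA, against 6.98% of all genes. Among them was ATF4 at -0.48 (adjusted p = 0.0215 from limma), where SLC7A11 had an estimate of 0.49. Of the 11 genes, 5 were in the shortest bin by transcript length, whose median was -0.21 with CDH2 shRNA and -0.02 with Cx43 shRNA. ATF4 has 1419 bases and SLC7A11 has 9645.

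**Figure D4:**
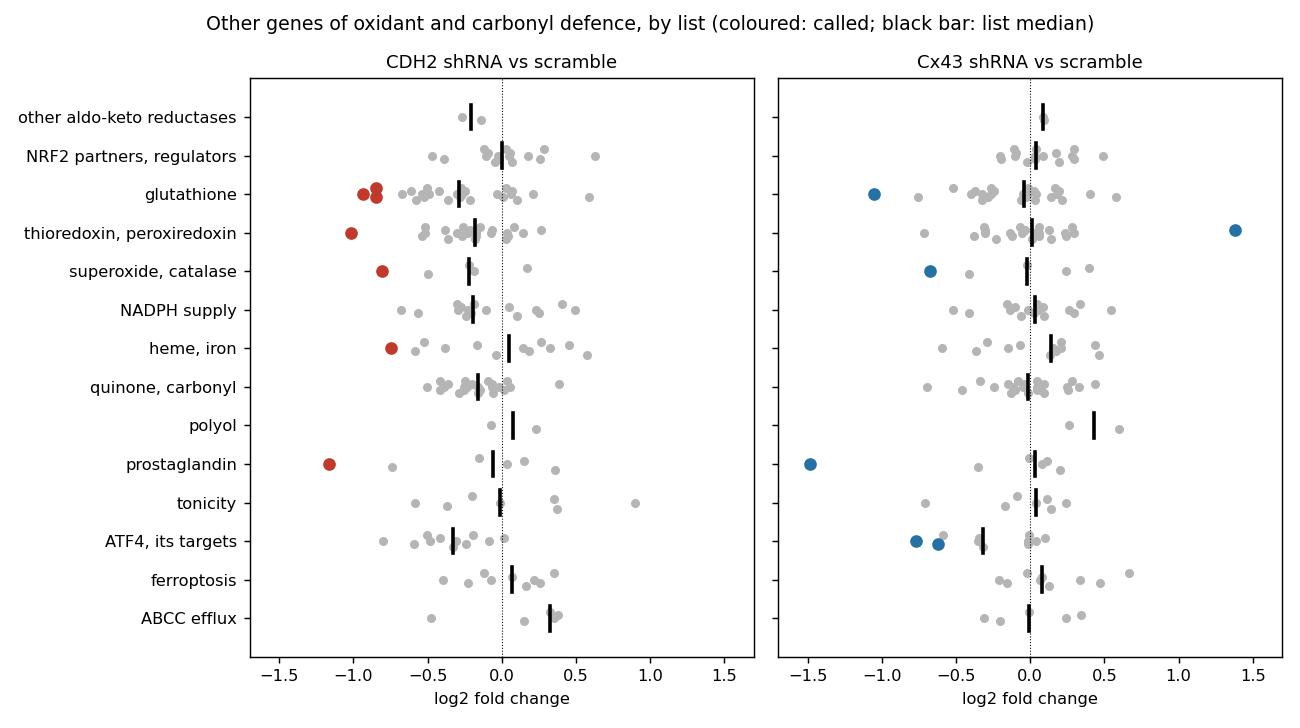
Log2 fold change (x axis) of 163 genes in 14 lists (y axis) with CDH2 shRNA and with Cx43 shRNA versus scramble, with called genes in colour and the median of each list as a black bar. The called genes with CDH2 shRNA are all to the left of 0, with PTGS1 the lowest in both panels, and SESN3 at 1.38 is the only called gene to the right with Cx43 shRNA.

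Per length, in CPM per kb of canonical transcript, TXNRD1 was the most abundant of the 8 genes in scramble, at 141 ± 9.42 (SD, n = 3). AKR1B1 and NQO1 followed at 109 ± 0.60 and 108 ± 4.78 (SD, n = 3), levels that did not differ beyond their spread, both above 96% of the genes with a length. SRXN1, GCLM and NFE2L2 came next, between 36.5 and 37.1 CPM per kb and overlapping one another. HMOX1 was at 15.9 and SLC7A11 was lowest, at 6.73. With CDH2 shRNA AKR1B1 was at 62.5 CPM per kb and NQO1 at 90.2, and with Cx43 shRNA they were at 72.2 and 100.

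Over the 8 libraries, the genes whose log2(CPM + 1) was most like that of AKR1B1 were METRNL (Pearson's r 1.00), PLD3, PI4KAP1, ATF4 and HOXB9 (r of 0.999 each). Those most like NQO1 were DPM3, SLC4A2, CAVIN1, FAM173A and TMED9, with r from 0.995 to 0.999. In all, 623 of the 12938 other genes had an r above 0.9 with AKR1B1 and 653 with NQO1, and 23 and 12 had one above 0.99. Among the 8 genes, AKR1B1, NQO1 and HMOX1 had r from 0.859 to 0.871 with one another, and GCLM and SLC7A11 had 0.65. TXNRD1 and SLC7A11 had 0.685, HMOX1 and SRXN1 0.751, and NQO1 and GCLM -0.758. SRXN1 and NFE2L2 ran in opposite directions over the libraries, with an r of -0.911, although the groups overlapped for both genes. These r are over libraries that share groups and replicate numbers, with the batch effect removed from the values, and are a description.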

How the data were processed

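RNA-Seq was analysed in 8 libraries of sorted CSCs. According to the methods, the authors aligned reads to hg38 with STAR in Partek Flow, took out a low-quality sample, normalized to log CPM + 1, removed the batch effect among the sequencing replicates, and dropped genes with low values. The submitters' processing notes give STAR 2.6.1, and the annotation is not given in the sources used here. The deposited values are log2 of CPM + 1, and hold no counts, so precision rests on the number of libraries. In each file 1 line without a gene name was left out, and no filter was added.

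All 8 libraries were fitted with limma 3.58.1 in R 4.3.3 (lmFit and eBayes) by group, with the replicate number as a block. The block was used since the methods removed a batch effect among the sequencing replicates. In every gene, same-numbered libraries deviated from their group means by amounts that cancelled to within 1e-04. The batch correction was thus made on these numbers, and their pairing, which comes from the labels, has no independent check. The residuals vary in 2 of 3 directions, while limma counted 3 residual degrees of freedom. Its intervals can thus be too narrow and its p-values too small. With the spread over the 2 directions, the standard error of GCLM between the knockdowns was 0.17 in place of 0.09, and that of SLC7A11 stayed at 0.24. P-values are two-sided, adjusted by Benjamini-Hochberg over 12939 genes. A gene was called when its adjusted p was under 0.05 and it changed by at least 0.73 on the log2 scale (CDH2 knockdown, the fold change of the methods) or 1.5-fold (Cx43 knockdown and CDH2 versus Cx43). On the log2(CPM + 1) scale the change of low genes is understated. The test was checked on simulated data with independent noise. Those values varied in all 3 residual directions, so the check does not cover data that vary in 2.

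The members and lists were chosen with earlier results of these data known. Genes named are the members, the called genes of each list, KEAP1, BACH1, GCLC, NFAT5, TXNIP and SORD, up to 4 genes with the largest changes in lists with no call, and the 5 genes most like AKR1B1 and NQO1. SQSTM1, RBX1 and AKR1A1 came in by that rule, and ATF4 among the genes like AKR1B1. The result of 1 further gene of the rule is not reported here. Positions and lengths are from GENCODE v44 (hg38), with 1 canonical transcript for 11812 genes (91.3%). Length was taken out with a lowess trend (span 0.3) per library. Promoter sequences are from RefSeq (GRCh38.p14). Alternatives were no block, quantile normalization, centring, a pseudocount of 0.1, the upper 75% of genes by mean, a mean-variance trend, only the groups compared, other fold changes and leaving out each library. The length trend and a spread over the 2 directions that vary were added after seeing the data.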

Additional observations from a re-analysis of the deposited data

How the results depend on the processing

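Over the alternatives run, the log2 fold change of AKR1B1, whose direction its choice fixed, ran from -0.83 to -0.61 for CDH2 shRNA and from -0.64 to -0.54 for Cx43 shRNA. For CDH2 shRNA it was no longer called with only the groups compared, with the trend with length removed or at a fold change of 2, each with 0 of the 8 genes called. For Cx43 shRNA 0 were called in the 75% of genes with the highest means, with a pseudocount of 0.1, with the spread over the 2 directions that vary, with the length trend removed or at a fold change of 2. Leaving out 1 library gave 0 to 1 called genes of the 8 in each knockdown and between them, where the called gene was SLC7A11. Losses for AKR1B1 came without CDH2 replicate 1 or 2, scramble replicate 1 or either Cx43 library, and for Cx43 shRNA also without scramble replicate 2. Leaving out a Cx43 library leaves 1 sample, which is then assumed to vary like the other groups.

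Of all genes, 267 were called for CDH2 shRNA, 150 with the 75% filter, 0 with only the groups compared, 164 with the length trend removed, 1846 with no fold change minimum, 66 at a fold change of 2 and 0 to 723 with 1 library left out. For Cx43 shRNA these were 153, 4, 741, 260, 156, 59 and 0 to 730, with 82 over the 2 directions. Between the knockdowns 0 were called, 414 with only the groups compared and 0 to 545 with 1 library left out. Without the replicate block the counts were 331, 532 and 360, and no call among the 8 genes changed. NQO1, HMOX1 and GCLM then passed the adjusted p for CDH2 shRNA (0.0161, 0.023 and 0.00624 from limma) but not the fold change minimum. The batch effect had been removed from the values, so the fit without the block (5 residual degrees of freedom) can understate the spread. Of the list genes, 7 were called for CDH2 shRNA, 0 with only the groups compared, 3 with the length trend removed, 35 with no fold change minimum, 2 at a fold change of 2 and 0 to 12 with 1 library left out. For Cx43 shRNA 6 were called, 12 without the replicate block, 0 with the 75% filter, 16 with only the groups compared, 3 over the 2 directions, 3 at a fold change of 2 and 0 to 16 with 1 library left out. Between the knockdowns 0 were called, 6 without the replicate block, 7 with only the groups compared and 0 to 9 with 1 library left out.

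The sign turned for HMOX1 between the knockdowns (0.0071 with quantile normalization, 0.13 with the length trend removed), TXNRD1 for CDH2 shRNA (-0.059 with the length trend removed), SRXN1 between the knockdowns (-0.072 with only the groups compared) and NFE2L2 for Cx43 shRNA (-0.046 with quantile normalization, -0.011 with the length trend removed), none of which was called. With 1 library left out, the log2 fold change for CDH2 shRNA ran from -0.119 to 0.119 for TXNRD1, -0.267 to 0.050 for SRXN1 and -0.025 to 0.199 for NFE2L2. For Cx43 shRNA it ran from -0.219 to 0.0054 for NQO1, -0.184 to 0.058 for TXNRD1, -0.303 to 0.087 for SRXN1, -0.56 to 0.248 for SLC7A11 and -0.206 to 0.237 for NFE2L2. Between the knockdowns it ran from -0.099 to 0.058 for HMOX1, -0.090 to 0.203 for TXNRD1, -0.181 to 0.209 for SRXN1 and -0.152 to 0.292 for NFE2L2. Over 408 values of the 8 genes, 358 kept their sign and their side of the threshold. With no counts used and 2 or 3 libraries a group, changes of the size seen in NQO1, HMOX1, GCLM and SLC7A11 lay near the limit of detection, with a median standard error of 0.11 to 0.12 over genes. The cause of these shifts was not tested.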
